A study of Osmanthus fragrans with 6 samples.

Results

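The 100 most abundant petal transcripts of Osmanthus fragrans var. semperflorens are described here across flowering. They were chosen as the 100 of 96596 assembled transcripts with the highest mean CPM (a transcript's counts scaled to the library total) over the 5 deeply sequenced libraries. Those values are levels in these same libraries, so high levels there are a description and not a result. The last member by this rule, c148210_g1_i1, had a mean of 911 CPM, and the next transcript outside it, c124768_g1_i1, had 901 CPM.

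The study followed flower colour and carotenoid genes in this sweet osmanthus, a fragrant shrub that flowers in repeated rounds within a season. Petals were taken from trees growing outdoors in September, without treatment, and 5 replicates were pooled into 1 library per stage. Libraries of flowering round 1 are called initial 1, full 1 (full bloom), late full 1 (late full bloom) and abscission 1, when petals are shed, and those of round 2 are called initial 2 and full 2. All 6 libraries share the variety and the tissue, and each stage is 1 pool, so the spread between plants was not measured, no p-value is given, and a stage, its collection date and its library cannot be told apart. Intervals are exact 95% Clopper-Pearson intervals and cover counting error only.

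A petal's messenger RNA is divided very unevenly, so a small set of transcripts can take a large part of all reads. Over a flower's life, opening petals make pigment, scent and wall material, and ageing petals break down their macromolecules and export the products before they are shed. A library's counts are a fixed total, so a larger share for some transcripts is a smaller share for the others. The table pairs the assembly IDs with no gene name, function or length, so members are named by ID and no role is given to any. Without lengths, ranks between transcripts are ranks of counts, in which a long transcript counts for more than a short one. Comparisons of the same transcript between libraries do not have this limit.

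Depth was 107466 counts in initial 1 and ran from 17826687 to 39119106 counts in the other 5 libraries. One count in initial 1 stood for 9.31 CPM. The members were nonetheless readable there, with a median of 91.5 counts, although 28 of them had under 50 counts and 2 had 0 counts. In the 5 deep libraries the fewest counts of any member were 90. All 100 members passed the filter of at least 1 CPM in at least 1 library, as did 31.6% of all transcripts.

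The members held a growing part of the petal's messenger RNA as round 1 went on. Their summed share was 15.6% of counts in initial 1 (95% interval 15.4 to 15.8), 16.6% in full 1, then 25.0% of counts in late full 1 and 30.2% of counts in abscission 1. In round 2 it was 19.3% in full 2 and 17.5% in initial 2. The widest counting interval among the 5 deep libraries was that of abscission 1, at 30.1 to 30.2%, and no interval of a library overlapped another. Initial 1 is the library that the choice of members did not use, and it lay lowest. A low share in a library left out is in part given by that choice. The mean that chose the members includes late full 1 and abscission 1, so their larger shares are in part given by it too. The 96496 other transcripts shared the remainder, from 84.4% in initial 1 to 69.8% in abscission 1.

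Most of the net difference lay in the 10 transcripts with the highest mean CPM. Members 11 to 100 held 11.6% of initial 1, 13.0% of full 1, 13.7% of late full 1, 14.7% of abscission 1, 13.2% of full 2 and 13.3% of initial 2. Members 2 to 10 held 1.04% of initial 1, 1.74% of full 1, 7.21% of late full 1, 12.4% of abscission 1, 4.45% of full 2 and 1.40% of initial 2. The sum of members 11 to 100 thus stayed within a narrow band, and the sum of members 2 to 10 differed many-fold between late and early petals. Single members beyond the first 10 changed strongly in both directions behind that sum. From full 1 to abscission 1, member 17 (c88323_g1_i1) was 4089-fold higher and member 20 (c142578_g4_i1) 4.84-fold lower. Members 2 to 10 were ranked by a mean that includes abscission 1. Between abscission 1 and full 1 the members together gained 13.6 percentage points. In that pair 44 members gained 21.1 points, 10.2 of them in 5 members, and the shares of 56 members changed by -7.54 points in total.

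**Figure D1:**
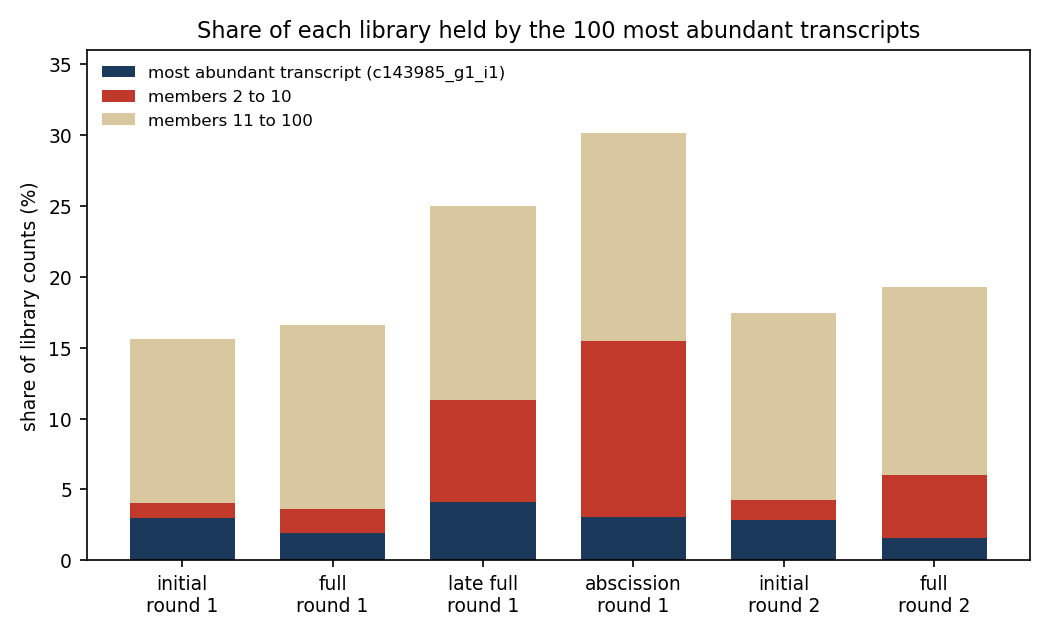
Share of each library's counts (%) held by the 100 members, stacked as the transcript with the highest mean CPM, members 2 to 10 and members 11 to 100, for 4 stages of round 1 and 2 stages of round 2. The bars reach 15.6, 16.6, 25.0, 30.2, 17.5 and 19.3%, and members 2 to 10 take 12.4% of abscission 1 against 1.74% of full 1.

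The late libraries of round 1 were also the more concentrated ones without reference to the members. The number of top transcripts that together held 50% of a library's counts was 1169 in initial 1, 1105 in full 1, 777 transcripts in late full 1 and 461 transcripts in abscission 1. It was 892 in full 2 and 1115 in initial 2. Each library's own 100 highest transcripts held 18.7%, 18.4%, 25.7% and 33.4% over the 4 stages of round 1, and 20.2% in full 2 and 19.9% in initial 2. By this measure full 1 lay slightly below initial 1, whereas the members' share was higher in full 1. Abscission 1 thus had 50% of its counts in the fewest transcripts.

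One transcript, c143985_g1_i1, had rank 1 in all 6 libraries. It had 3213 counts in initial 1, 372848 in full 1, 1060749 in late full 1, 542970 in abscission 1, 306510 in full 2 and 1103798 in initial 2. These were 2.99% of initial 1 (95% interval 2.89 to 3.09), 1.88% of full 1, 4.09% of late full 1, 3.05% of abscission 1, 1.59% of full 2 and 2.82% of initial 2. Its share was highest in late full 1 and lowest in full 2, and the full-bloom libraries of both rounds lay below the initial ones. Levels are given below as scaled CPM, which is CPM taken on the total of the filtered transcripts and divided by TMM factors (trimmed mean of M-values, a scaling that sets most transcripts equal between libraries). On that scale c143985_g1_i1 stood at 45102 in late full 1 and 43041 in abscission 1, against 17938 in full 1, and full 2 at 18420.5 was close to full 1.

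The other top members changed places between early and late petals. Transcript c157145_g2_i1 had rank 2533 in initial 1, on 9 counts, and rank 102 in full 1. It then had rank 2 in late full 1 and in abscission 1. In round 2 it had rank 2 in full 2 and rank 132 in initial 2. Its scaled CPM was 55.6 in initial 1, 789.6 in full 1, 21538 in late full 1, 40617 in abscission 1, 13578 in full 2 and 638 in initial 2. This single transcript made up 2.87% of all counts in abscission 1, against 0.0829% in full 1. It was 51.4-fold higher in abscission 1 than in full 1 (95% interval 50.6 to 52.3), or 34.6-fold when only the totals of the filtered transcripts were used for scaling (total counts). In round 2 the ratio of full 2 to initial 2 was 21.3-fold (95% interval 21.0 to 21.5), or 16.6-fold with total counts.

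Transcripts c148011_g2_i1, c130597_g1_i1, c149245_g1_i1, c138101_g2_i1 and c152903_g1_i1 followed the same course. Transcript c148011_g2_i1 had scaled CPM of 148, 469.7, 4889.7 and 37296 in the 4 stages of round 1, with 6076 in full 2 and 537 in initial 2. Transcript c130597_g1_i1 had 61.8, 245, 6037 and 32556 in the same 4 stages, with 4465 in full 2 and 156 in initial 2. For both of them the step from late full 1 to abscission 1 was still large, at 7.63-fold for c148011_g2_i1 and 5.39-fold for c130597_g1_i1. For c149245_g1_i1 that step was small, with 19839.5 scaled CPM in abscission 1 against 13260.4 in late full 1, and most of its difference lay between late full 1 and full 1, at 11.7-fold. Transcript c152903_g1_i1 had nearly reached its height in late full 1 too, with 10342 scaled CPM in abscission 1 against 8147 in late full 1 and 320.4 in full 1, and with total counts abscission 1 was 0.988 times late full 1. Transcript c150214_g2_i1 moved less and was abundant throughout, with 1014, 1996, 6175 and 11908 scaled CPM by stage of round 1, with ranks between 7 and 40 in the 6 libraries.

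Transcripts c144174_g2_i1 and c222682_g1_i1 went the other way in rank. Transcript c144174_g2_i1 had rank 3, 2 and 4 in initial 1, full 1 and late full 1, rank 48 in abscission 1, and rank 3 in full 2 against rank 2 in initial 2. It stood at 2009 scaled CPM in abscission 1, against 9291 in late full 1, and was 4.62-fold lower there (95% interval 4.56 to 4.68), or 5.94-fold with total counts. Transcript c222682_g1_i1 had rank 41 in abscission 1 against ranks 5 to 13 in the other 5 libraries, but its scaled CPM of 2489 in abscission 1 was within 2-fold of that in each of them.

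**Figure D2:**
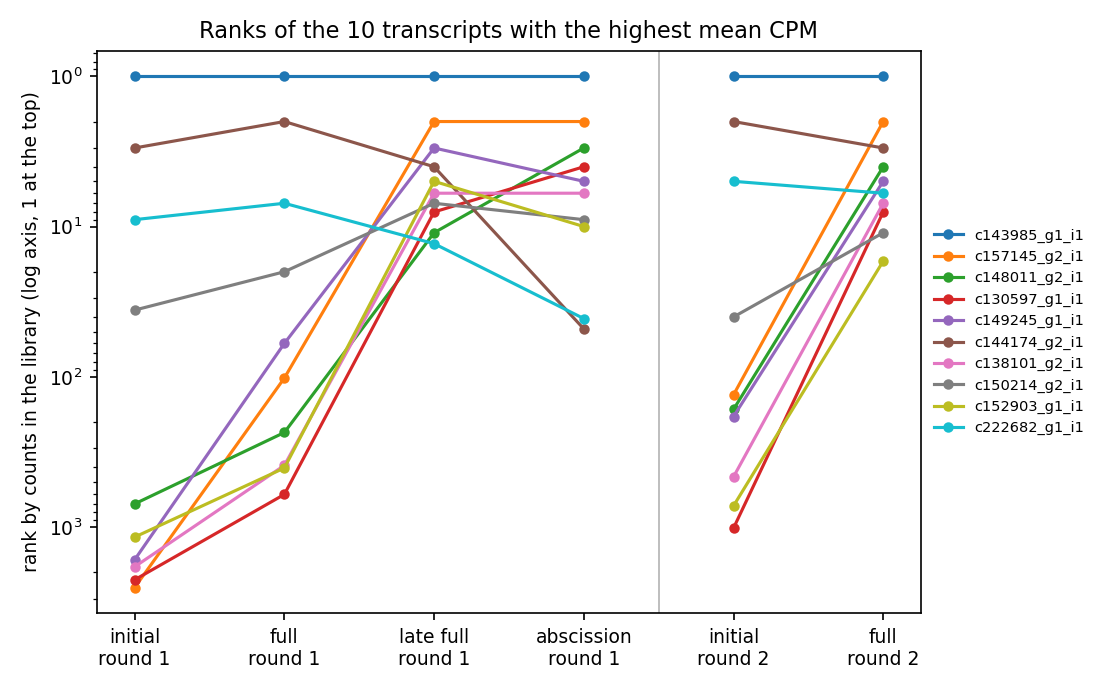
Rank by counts within each library (log axis, rank 1 at the top) of the 10 transcripts with the highest mean CPM, with lines joining the stages of a round. Transcript c143985_g1_i1 keeps rank 1 in all 6 libraries, while c157145_g2_i1 has rank 2533 in initial 1, rank 2 in abscission 1 and rank 2 in full 2.

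All 10 top transcripts of each library were members, but the lists below them turned over. Of the own top 100 of each library, members made up 67 in full 1, 82 in late full 1, 63 in abscission 1, 81 in full 2 and 69 in initial 2. In initial 1, where ties gave 102 transcripts at rank 100 or better, 59 were members. Only 24 transcripts, all of them members, were in the top 100 of all 5 deep libraries, and 22 of these were also in that of initial 1. In all, 221 transcripts reached the top 100 of at least 1 library, and these included every member. Abscission 1 shared 33 of its top 100 with full 1 and 61 with late full 1, and full 2 shared 75 with late full 1, 69 with full 1 and 63 with initial 2. Initial 2 shared 72 of its 100 with initial 1, which is 70.6% of the 102 of initial 1.

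Rank varied most for members that were scarce before late full bloom. In the deep libraries 57 members stayed within rank 200 and 84 within rank 500, while 11 lay beyond rank 1000 in at least 1 library. Beyond rank 1000 were 8 members in full 1, 11 in initial 2, 18 in initial 1, and 0 in late full 1, abscission 1 and full 2. The widest range, by the ratio of ranks, was that of c88323_g1_i1, which had rank 14946 in full 1, 75 in late full 1, 7 in abscission 1, 339 in full 2 and 12734 in initial 2. It had 1 count in initial 1. The narrowest ranges after c143985_g1_i1 were those of c155250_g1_i2, between ranks 52 and 90, and c145404_g1_i1, between ranks 46 and 106.

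For 13 members, at least 50% of the CPM summed over the 5 deep libraries lay in a single library, and that library was abscission 1 for all 13. These are the values that chose the members, and a mean lets in transcripts that are very high in 1 library. The number therefore describes the choice, and no such share was computed over all transcripts. The share was 88.9% for c88323_g1_i1, 79.2% for c159830_g1_i1 and 75.2% for c155541_g1_i1, so these are members through 1 pool. Across the 100 members this share had a median of 29.5% and a lowest value of 22.4%. The ratio of the highest to the lowest scaled CPM in the deep libraries was under 2 for 18 members, 2 to 4 for 42, 4 to 10 for 18 and at least 10 for 22, with 7 of the 22 at 100 or more. Its median was 3.25.

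Members were grouped by their scaled CPM in full 1, late full 1 and abscission 1, as steady where the highest was under 2 times the lowest, and otherwise by the order of the 3 stages. There were 37 members higher at each stage, 17 lower at each stage, 13 highest at late full, 2 lowest at late full and 31 steady. Among 25038 transcripts with at least 50 counts over these 3 libraries, the same groups held 15.7%, 13.8%, 12.2%, 10.1% and 48.2%. With total counts, 27 members were higher and 30 lower at each stage, so the balance between these groups depends on the scaling. The shares of all transcripts in the groups are given with TMM only. All 27 were among the 37, and all 17 were among the 30.

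**Figure D3:**
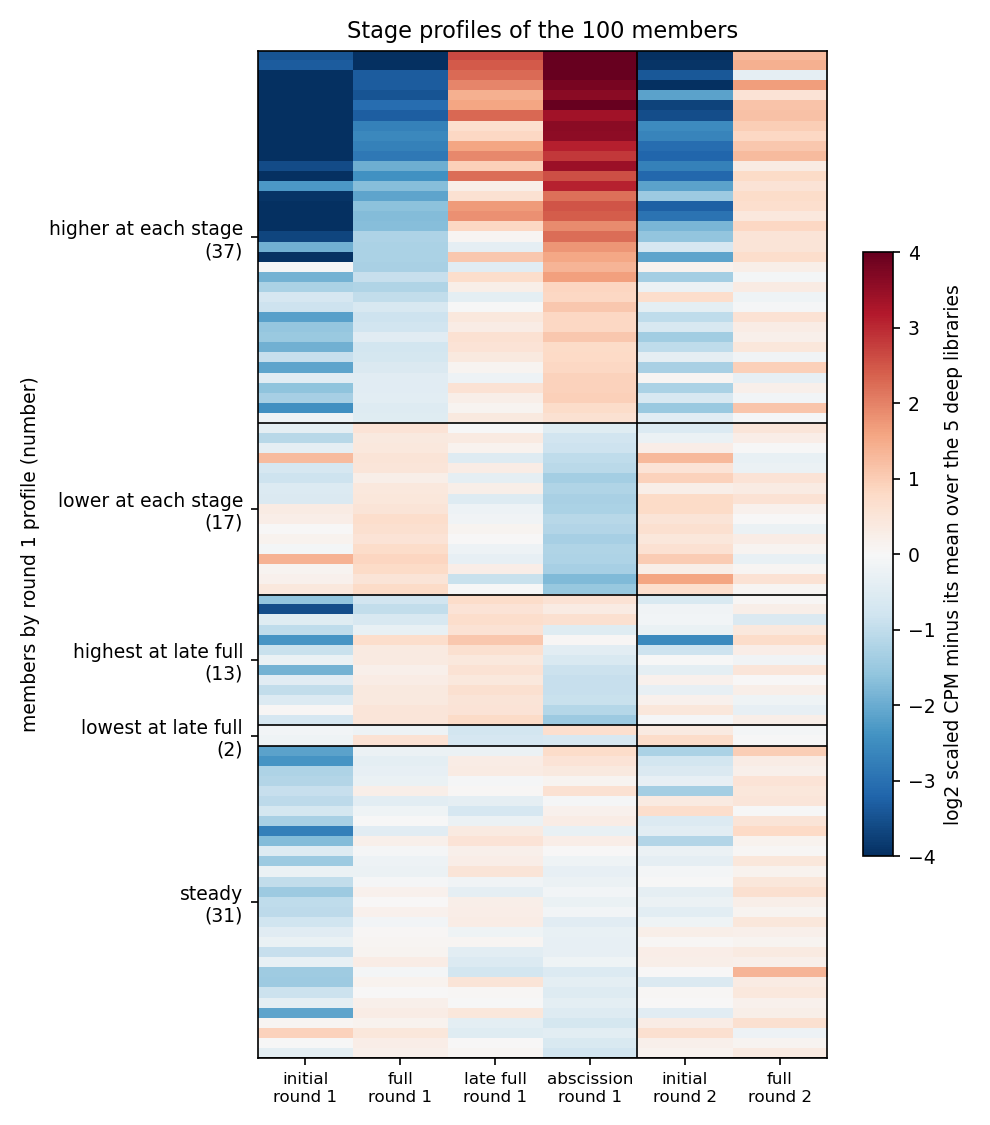
Log2 scaled CPM of each member (rows, grouped by round 1 profile, with the number of members) in the 6 libraries, minus the row's mean over the 5 deep libraries, with colours limited to 4 either way and values under 3 counts set to 3 counts. The 37 members higher at each stage are also mostly higher in full 2 than in initial 2, and 35 of them are above 0 in that ratio.

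The 37 members higher at each stage carried the growth of the whole set. Together they held 1.70% of counts in initial 1, 2.12% in full 1, then 10.4% of counts in late full 1 and 21.8% of counts in abscission 1. In round 2 they held 7.19% of full 2 and 2.22% of initial 2. The 27 that kept this profile with total counts held 0.983%, 1.27%, 8.41% and 19.6% over the 4 stages of round 1, 5.64% in full 2 and 1.49% in initial 2. The 3 libraries that define the group give its increase by construction. Initial 1 and both round 2 libraries played no part in the grouping. The round 2 libraries did help to choose the members, so the group's shares there are in part given by that choice. Low counts limit initial 1, where 23 of the 37 members had under 50 counts.

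The 17 members lower at each stage had their highest shares in the initial libraries and full 1, and their lowest in abscission 1. They held 4.20% of initial 1, 4.12% of full 1, 2.32% of late full 1 and 0.840% of abscission 1, and 2.54% of full 2 and 4.37% of initial 2. Transcript c157502_g1_i1, the one with the highest mean CPM, had ranks 2, 3, 19 and 75 over the 4 stages of round 1, and rank 14 in full 2 against rank 3 in initial 2. It stood at 1485 scaled CPM in abscission 1, against 5202 in full 1, and at 3191 in full 2, against 4562 in initial 2. Transcript c139634_g1_i1 stood at 1218 scaled CPM in abscission 1, against 3704 in full 1, but at 3491 in full 2, against 3287 in initial 2, a small difference that turned with total counts, at 0.302% of full 2 against 0.363% of initial 2.

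The remaining groups were steady, or had their highest or lowest level at late full bloom. The 13 members highest at late full, c143985_g1_i1 among them, held 5.22%, 5.10%, 7.77% and 4.33% over the 4 stages, 4.13% in full 2 and 5.55% in initial 2. Transcript c143985_g1_i1 alone held 1.88% of full 1 and 4.09% of late full 1. Only 3 of the 13 were at least 2-fold higher in late full 1 than in full 1, while 10 were at least 2-fold lower in abscission 1 than in late full 1. With total counts 9 of the 13 kept this profile. The 31 steady members held 4.05%, 4.90%, 4.27% and 2.96% over the 4 stages, 5.16% in full 2 and 4.84% in initial 2. Their smaller share in abscission 1 is of counts and stands beside scaled CPM that by definition varied under 2-fold. Transcript c146331_g3_i1, steady, had 2702, 4074, 3453 and 2695 scaled CPM by stage of round 1, 3954 in full 2 and 3555 in initial 2. The 2 members lowest at late full were c144686_g2_i2, at 1238 scaled CPM in late full 1 between 1800.3 in full 1 and 3331 in abscission 1, and c155447_g2_i3, at 711 in late full 1 and 736 in abscission 1. The level of c155447_g2_i3 hardly differed between these last 2 stages.

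**Figure D4:**
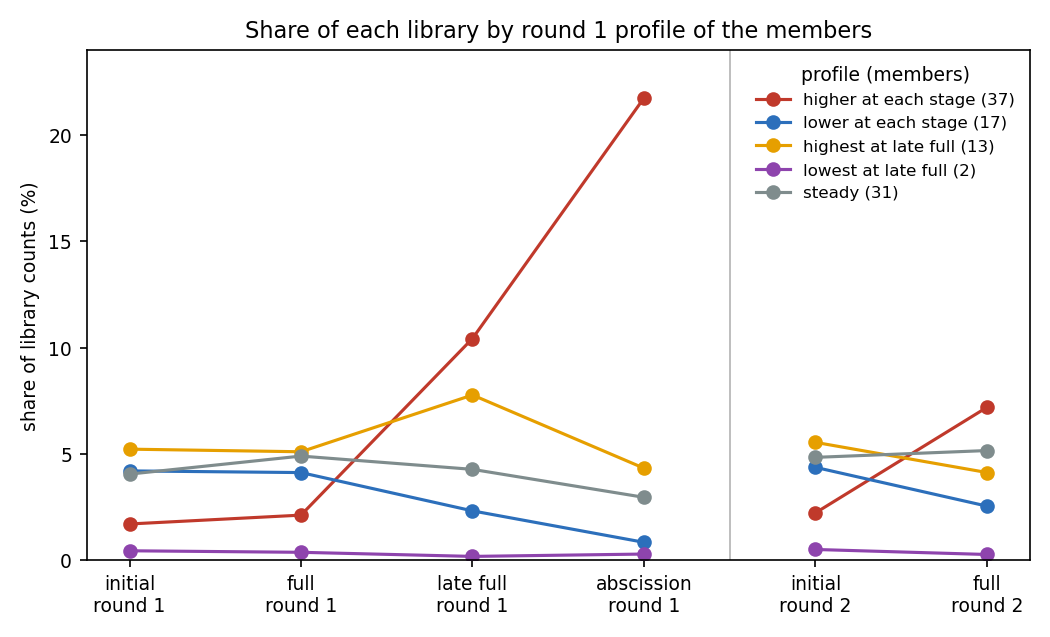
Share of each library's counts (%) held by the members of each round 1 profile, with the number of members in the legend and lines joining the stages of a round. Members higher at each stage reach 21.8% in abscission 1 and 7.19% in full 2, while those lower at each stage are at 0.840% in abscission 1.

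A member was counted as differing between 2 libraries where its ratio reached 4-fold and both libraries together held 50 counts or more of it. Comparisons that share a library are set side by side and are not independent. Shares of all transcripts that differed are given with TMM scaling only, so they do not stand beside member numbers with total counts. All libraries but initial 1 chose the members, so a difference between members and all transcripts is in part given by that choice. Between late full 1 and full 1, 18 members differed, all higher in late full 1, where 5.44% of all 23059 transcripts tested differed, 3.49% higher and 1.96% lower. Between abscission 1 and late full 1, 12 members differed, 11 higher and 1 lower in abscission 1, beside 9.53% of all transcripts, 5.1% higher and 4.43% lower. Scaling by totals gave 8 members higher and 2 lower. The median log2 ratio of the members was 0.32 for late full 1 over full 1 and 0.06 for abscission 1 over late full 1, while all transcripts had -0.00299 and 0.09. With total counts the medians of the members were 0.11 and -0.30, and those of all transcripts -0.21 and -0.27.

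Abscission 1 and full 1 span the late course of round 1. Of the members, 24 were at least 4-fold higher and 4 lower in abscission 1, beside 15.3% of all transcripts in either direction, 9.01% higher and 6.33% lower. With total counts 23 members were higher and 16 lower, so the number lower depends on the scaling. A transcript strongly raised in abscission 1 could enter the list through that level, so the number higher is in part given by the rule. The median log2 ratio was 0.11 for the members and 0.03 for all transcripts, or -0.46 and -0.53 with total counts. Transcript c88323_g1_i1 had 223361 counts in abscission 1 and 90 in full 1, a 4089-fold higher level (95% interval 3326 to 5085). Transcript c155541_g1_i1 was 969-fold higher in abscission 1 (95% interval 814 to 1163). The lowest ratios were those of c142578_g4_i1 and c146630_g1_i1. Transcript c142578_g4_i1 stood at 665 scaled CPM in abscission 1, against 3220.1 in full 1, and was 4.84-fold lower (95% interval 4.74 to 4.96), or 7.19-fold with total counts. Transcript c146630_g1_i1 stood at 237 scaled CPM in abscission 1, against 1136 in full 1, and was 4.79-fold lower (95% interval 4.61 to 4.97), or 7.11-fold with total counts.

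Against initial 1, 38 members were at least 4-fold higher and 2 lower in abscission 1, beside 36.8% of all transcripts, 34.1% higher and 2.66% lower. Those shares of all transcripts depend on the depth of initial 1, where 15283 transcripts had any count, against 56792 in abscission 1. With total counts 24 members were higher and 12 lower. The 2 members lower were c134566_g1_i1 and c138744_g1_i1. Transcript c134566_g1_i1 had rank 346 in abscission 1 against rank 5 in initial 1, and c138744_g1_i1 had rank 294 against rank 6. Transcript c138744_g1_i1 was 4.77-fold lower in abscission 1 (95% interval 4.32 to 5.25), or 10.1-fold with total counts. The highest were c159830_g1_i1 and c155541_g1_i1, each with 0 counts in initial 1. With 3 counts as the floor of that library, c155541_g1_i1 was at least 317-fold higher in abscission 1, or at least 149.6-fold with total counts.

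Full against initial bloom was measured in both rounds, in pairs with no library in common. In round 2, 24 members passed 4-fold upward and 0 downward in full 2 relative to initial 2, beside 15.2% of all transcripts, 7.42% higher and 7.79% lower. At 2-fold, 39 members were higher and 3 lower, beside 17.4% and 21.7% of all transcripts. The members' median log2 ratio was 0.59, against -0.06 over all transcripts. With total counts these medians were 0.23 and -0.41, 20 members were at least 4-fold higher and 0 lower. In round 1, 16 members passed 4-fold upward and 0 downward in full 1 relative to initial 1 (11 and 0 with total counts), beside 32.8% of all transcripts, 30.8% higher and 1.92% lower. At 2-fold, 48 members were higher and 1 lower in full 1, beside 43.5% and 9.69% of all transcripts. The direction was the same in both rounds for 75 members, 68 of them higher and 7 lower at full bloom, while 59.5% of 17896 transcripts had the same direction. With total counts it was the same for 78 members, 56 higher and 22 lower, beside 58.5% of transcripts. In initial 1 only 15283 transcripts had any count, against 57145 in full 1, while the members had a median of 91.5 counts there. Shares of all transcripts in pairs with initial 1 thus depend on its depth. The member numbers depend on it too. With every library thinned to that depth, 6 members passed 4-fold for full 1 over initial 1. No share of all transcripts was taken after thinning. At 2-fold, 34 members were higher at full bloom in both rounds, which is 70.8% of the 48 of round 1 and 87.2% of the 39 of round 2, and 0 members went opposite ways. With total counts 22 members were higher in both rounds, of 30 in round 1 and 29 in round 2, and 1 went opposite ways. The overlap at 2-fold was not computed over all transcripts. With TMM, 89 members were above 0 in round 1 and 72 in round 2, so much overlap follows from these numbers alone.

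The largest ratios of round 2 belonged to members of the abscission end of round 1. Transcript c88323_g1_i1 stood at 482 scaled CPM in full 2, against 7.24 in initial 2, a 66.6-fold difference (95% interval 59.4 to 74.7). Transcript c104035_g1_i1 stood at 1152 scaled CPM in full 2, against 21.0 in initial 2, a 54.8-fold difference (95% interval 51.3 to 58.6). The lowest ratios were those of c138744_g1_i1, 2.98-fold lower in full 2 (95% interval 2.93 to 3.03), and c134566_g1_i1, 2.48-fold lower (95% interval 2.44 to 2.52). A different pattern was that of c149094_g1_i1, chosen after its values were seen, which was low at the initial stage of both rounds and many-fold higher at full bloom. Its scaled CPM was 1777 in full 1, against 216 in initial 1, and 1824 in full 2, against 188 in initial 2. Its later levels in round 1 were 2296 in late full 1 and 1144 in abscission 1.

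The late difference of round 1 and the opening difference of round 2 also share no library. Of the 100 members, 48 were higher in both abscission 1 than in full 1 and full 2 than in initial 2, 23 were lower in both, and 24 were lower in abscission 1 and higher in full 2. The remaining 5 were higher in abscission 1 and lower in full 2. With total counts these numbers were 37, 34, 22 and 7. The same direction was thus found for 71 members, and for 68.1% of 20747 transcripts, so this share was close to that of all transcripts, as it was with total counts, at 71 members and 71.3%. Of the 37 members higher at each stage of round 1, 35 were higher in full 2 than in initial 2, or 32 with total counts. Their median log2 ratio was 2.59, or 2.23 with total counts. Among all 3436 transcripts with that profile and enough counts, 81.5% were higher in full 2, with a median of 0.96. Full 2 and initial 2 helped to choose the members, so the members' distance from these values is in part given by that choice. Of the 17 lower at each stage, 3 were higher in full 2, and the median was -0.50, while 24.2% of 3200 transcripts with that profile were higher. One member differed at least 2-fold in opposite directions, c147055_g1_i1 (chosen after its values were seen), at 786 scaled CPM in abscission 1 against 1593 in full 1, and 1524 in full 2 against 749 in initial 2.

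**Figure D5:**
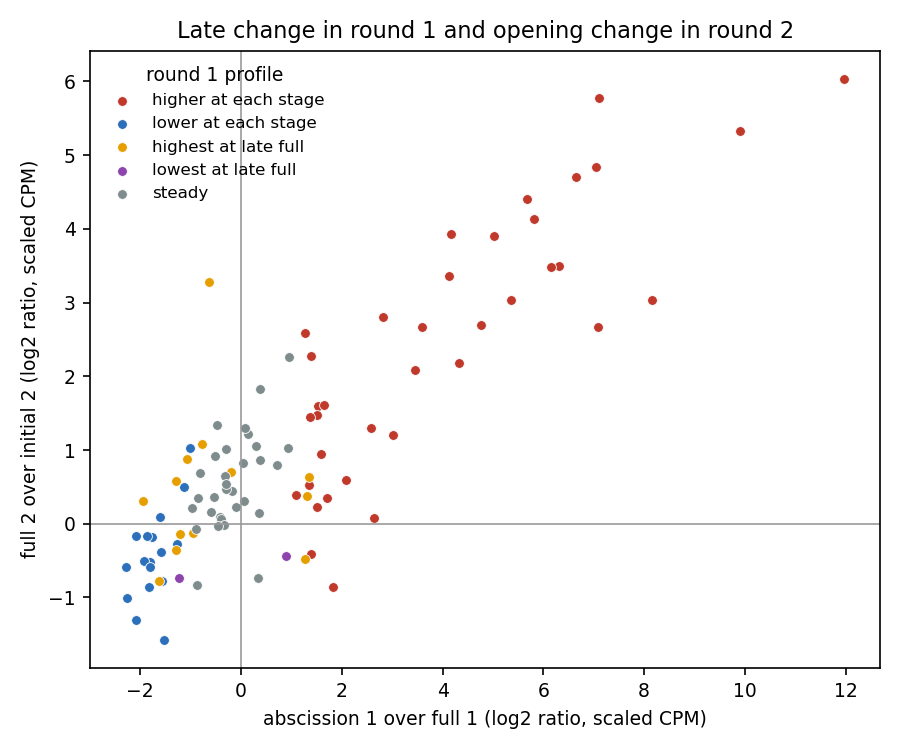
Log2 ratio of scaled CPM in full 2 over initial 2 (vertical axis) against abscission 1 over full 1 (horizontal axis) for the 100 members, coloured by round 1 profile. Members higher at each stage lie mostly in the upper right corner, where 48 members are above 0 on both axes, and 5 members lie in the lower right.

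Full 2 was set against full 1 to compare the rounds at the same named stage. Of the members, 18 were at least 4-fold higher and 0 lower in full 2, beside 10.3% of all transcripts, 6.33% higher and 4.01% lower. With total counts 15 were higher and 0 lower. For the 37 members higher at each stage, full 1 is the lowest of the 3 stages by definition. In full 2, 23 of them lay between full 1 and late full 1, 12 between late full 1 and abscission 1, and 2 above all 3. With total counts these numbers were 25, 8 and 3, and 1 member lay below full 1. Among 3087 transcripts with that profile, 32.1% lay between full 1 and late full 1, 44.5% between late full 1 and abscission 1, and 18.8% above all 3. For c88323_g1_i1 the ratio of full 2 to full 1 was 111-fold (95% interval 90.5 to 139), and it remained lower there than in late full 1, at 482 against 1251 scaled CPM. The lowest ratios were those of c134566_g1_i1, 2.23-fold lower in full 2 (95% interval 2.19 to 2.27), and c154319_g2_i1, 1.83-fold lower (95% interval 1.80 to 1.86). A difference between rounds and a later point within the full stage cannot be told apart.

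At the initial stage fewer members passed 4-fold between the rounds, 11 against 18 at full bloom. This holds at 4-fold only. At 2-fold 34 members differed for initial 2 over initial 1 and 33 for full 2 over full 1. No share of all transcripts at 2-fold is given for these pairs. Of the members, 11 were at least 4-fold higher and 0 lower in initial 2 than in initial 1, beside 43.8% of all transcripts, 40.9% higher and 2.87% lower. Only 15283 transcripts had any count in initial 1, against 69728 in initial 2, so the shares of all transcripts depend on depth. The member number does too, with 3 members differing after thinning to that depth. The median log2 ratio was 0.78 for the members and 1.00 for all transcripts, or 0.34 and 0.57 with total counts. For full 2 over full 1 the members' median was smaller, at 0.45, or 0.17 with total counts. Across the 100 members, log2 CPM of initial 1 correlated with that of initial 2 at a Pearson r of 0.93, with full 1 at 0.91, with full 2 at 0.36, with late full 1 at 0.05 and with abscission 1 at -0.52. These values describe 100 transcripts that share their libraries and were chosen on their mean level in the other 5.

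Apart from their levels, the members can be described by their IDs. Their 100 IDs came from 100 different assembly components, the groups of related sequences that share the start of an ID. Most transcripts are alone in their component, so this does not set the members apart. The number of components among other sets of transcripts was not computed. The component held no other listed transcript for 62 members, against 51.9% of the 30524 transcripts that passed the filter and 72.4% of all 96596 transcripts. The other 38 members shared a component with 92 transcripts outside the list, and 15 of these had over 10% of the member's mean CPM. Nearest in level were c161885_g2_i1 and c161885_g3_i1, at 78.7% and 69.2% of the mean CPM of the member c161885_g4_i1, an example chosen after its values were seen. Their scaled CPM in abscission 1 was 5183 and 4201, against 5534 for the member, and in full 1 it was 21.9 and 9.29, against 134. How reads common to related transcripts were divided is not given in the sources used here, so levels within such a component are uncertain.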

How the data were processed

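The deposited table holds estimated counts of 96596 assembled transcripts, 1 column per library, with no scaling by the authors and between 36 and 855 decimal values per column. Each library is a pool of 5 replicates (series' design text), the assembly was de novo (series' title), and poly-T beads were used to purify messenger RNA, per the labels' protocols. The submitters' processing notes name CASAVA 1.7. Which assembler, aligner and counter made the table is not given in the sources used here.

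Expected counts were rounded. CPM and ranks used all counts of a library. For ratios, the 30524 transcripts that reached 1 CPM in any library were scaled with TMM in edgeR 4.0.16 (R 4.3.3), and compared as log2 ratios with a prior count of 2. The TMM factor was 1.50 in initial 1 and between 0.711 (abscission 1) and 1.11 (initial 2) in the deep libraries. After thinning all libraries to the depth of initial 1, its factor was 1.13, so ratios against initial 1 depend on depth. On Poisson counts simulated from the mean levels and these depths, the 4-fold rule recovered 200 of 200 transcripts changed 8-fold for abscission 1 over full 1 and called 0 of the others, among 30524. The changed transcripts all expected over 200 counts in full 1, and no spread between pools was simulated. This outcome was nearly fixed in advance, so it checks the calculation only and does not cover initial 1. With 1 library per group no test was possible.

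Named members are the 10 with the highest mean CPM, the 2 highest and 2 lowest ratios in 4 comparisons, the 2 with the highest mean CPM in each profile, the 3 widest and 3 narrowest rank ranges, and the members at the threshold. The members and lists were chosen with earlier results of these data known. DESeq2 1.42.0 size factors were an alternative scaling. Other steps used Python 3.11.15 with SciPy 1.17.1, matplotlib 3.10.9, NumPy 2.4.6 and pandas 2.3.3.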

Additional observations from a re-analysis of the deposited data

How the results depend on the processing

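No paired analysis was possible because each group is 1 library without a replicate number. Of the 100 members, 86 were also among the 100 highest by median CPM and 87 by the mean without abscission 1, the lowest among the 9 other rules tried. The 50 highest transcripts held 10.95%, 11.4%, 19.4% and 23.8% over the 4 stages of round 1, 13.6% in full 2 and 12.2% in initial 2. The 200 highest held 21.4%, 23.4%, 31.6% and 37.0%, 27.1% in full 2 and 24.1% in initial 2. A 2-fold threshold gave 39 differing members for abscission 1 over late full 1, 35 for late full 1 over full 1, 49 for full 1 over initial 1, 65 for abscission 1 over initial 1, 64 for abscission 1 over full 1, 42 for full 2 over initial 2, 33 for full 2 over full 1 and 34 for initial 2 over initial 1. An 8-fold threshold gave 1, 14, 7, 25, 20, 15, 11 and 7 in the same order. With every library thinned to the shallowest depth, 6 members differed for full 1 over initial 1 and 3 for initial 2 over initial 1, so these counts depend on the scaling of initial 1 at its depth. With total counts 30 members were lower at each stage. With steady taken as under 1.5-fold, 7 members were lowest at late full and 15 steady. With steady taken as under 4-fold, 24 were higher at each stage, 4 lower, 1 highest at late full, 0 lowest at late full and 71 steady. Counts of differing members under DESeq2 size factors, TMM factors computed without the members, no filter, minimums of 10 and 200 counts and a prior count of 0.5 stayed within 1.5 times the reported ones when both directions were added, but under DESeq2 size factors 2 members, not 4, were lower for abscission 1 over full 1. The 2 highest and 2 lowest ratios in the 4 comparisons used to name members kept their direction with total counts and with DESeq2 size factors. Some other ratios turned with total counts. They include c139634_g1_i1 for full 2 over initial 2, at 1.06 with TMM and 0.831 with total counts. Transcript c152903_g1_i1 also turned for abscission 1 over late full 1, at 1.27 and 0.988.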

Other observations

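Outside the members, 121 transcripts reached the top 100 of at least 1 library, and those named here were chosen after their values were seen. In abscission 1 there were 37 of these, holding 5.30% of its counts, against 33 and 3.28% in full 1. The highest of them in abscission 1 were c161885_g2_i1 at rank 19 and c136696_g2_i1 at rank 21. Transcript c136696_g2_i1 had 0 counts in initial 1 and 198 in full 1. Its CPM was then 326 (late full 1), 3208 (abscission 1), 875 (full 2) and 13.4 (initial 2).

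In full 2 there were 19 such transcripts, with 2.39% of its counts. The highest, c151394_g1_i2, had rank 27 in full 2, against rank 835 in initial 2 and 631 in full 1. It stood at 1993 CPM in full 2, against 196 in initial 2 and 251 in full 1. In initial 1 the highest transcript outside the members was c151095_g1_i1, at rank 22 there and at rank 1030 in abscission 1.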
